A study of Mus musculus with 17 samples.

Results

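The genes described here are 36 genes of endothelial cells, measured by RNA sequencing in mouse Kupffer cells (KCs), macrophages that live in the liver sinusoids, after sorting. They were picked out by gene name, under a rule that uses no measured value, but the list was drawn up with earlier results of these data known. Of the 36 genes, 11 are typical of the liver sinusoid and 25 are listed as pan-endothelial, out of 25124 genes in each of the 3 deposited tables. Most of the 25 are shared between endothelia, but some, such as *Bmx*, *Sox17* and *Vwf*, are enriched in certain vessels. All 36 had reads in the tables of the TIM4+CD206+ and TIM4+CD206hi KCs, and 35 had reads in the table of Id3 genotypes, where *Bmx* was listed at 0.

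TIM4+CD206+ and TIM4+CD206hi KCs each gave 3 samples from untreated, tumour-free mice and 3 from tumour-bearing mice. The latter had received cells of a mouse pancreatic adenocarcinoma line by the portal vein, and their livers were taken 2 weeks later. KCs of the Id3 comparison came from 3 Id3f/f and 2 Clec4fCreId3f/f mice, all without tumour and all with floxed *Id3* alleles, where the Cre is driven by the KC gene *Clec4f*. The sort of the KC subsets took CD45+F4/80+TIM4+ cells that lacked lymphocyte, NK cell and neutrophil markers and split them by CD206. Ages were not given in the sources used here. For the KC subsets nothing in the labels says whether the samples of a group were separate mice, so their p-values measure the spread between these samples only.

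The values have the form of regularized log2 values, which is inferred from the values themselves and the tools named in the labels. The submitters' processing made them for each table separately, so that a level was compared across tables only by its rank within a sample. The values keep no read totals, and the depth behind them is unknown. The 12 KC markers examined, among them *Clec4f*, *Timd4* and *Vsig4*, had a median rank of 99.8 to 99.9 percentile in each sample. *Id3* was at 12.58, 12.46 and 12.82 in the Id3f/f samples and at 9.83 and 9.82 in the Clec4fCreId3f/f samples, as the labels say. *Xist* was higher (9.84 and 9.76 against 6.33 to 6.38) and the Y-linked *Ddx3y* lower (7.01 or less against 9.43 to 9.46) in the Clec4fCreId3f/f samples, so that genotype and the sex of the mice cannot be told apart there. In the TIM4+CD206+ table, tumour-free replicate 2 was the lowest of its group for 30 of the 36 endothelial genes and tumour-bearing replicate 3 the highest of its group for 33. In the TIM4+CD206hi table, tumour-free replicate 2 was the lowest for 21 genes and tumour-free replicate 3 for 12. Results that turn on these libraries are given with and without them.

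Liver sinusoidal endothelial cells line the sinusoids in which KCs sit, have open fenestrae and no continuous basement membrane, and clear macromolecules from blood by scavenger receptors. Like KCs, they carry the mannose receptor CD206. Genes shared by all endothelia encode the receptors for vascular growth factors and angiopoietins, junction proteins, matrix proteins laid down around vessels and the transcription factors of the ETS and SOX families that keep the endothelial state.

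Promoters of the sinusoidal lectin gene *Clec4g*, the scavenger receptor gene *Stab2*, the endocytic recycling gene *Ehd3* and the pan-endothelial receptor gene *Tie1* are shown because these genes are described below. These promoters differ in their content of AGGAAG, a form of the site bound by ETS factors. Each is the 250 bases before an annotated start of the gene (RefSeq, GRCm38.p6), 5′ to 3′ on the strand of the gene. The outer limits of *Clec4g* (3720695) and *Stab2* (87008038) lie inside their windows, so part of these 2 windows falls within the gene. Capitals mark AGGAAG, a form of the site bound by ETS factors such as ERG, or CTTCCT, the same form on the other strand. The shorter core GGAA is not marked.
Clec4g, chr8:3720652-3720901, minus strand: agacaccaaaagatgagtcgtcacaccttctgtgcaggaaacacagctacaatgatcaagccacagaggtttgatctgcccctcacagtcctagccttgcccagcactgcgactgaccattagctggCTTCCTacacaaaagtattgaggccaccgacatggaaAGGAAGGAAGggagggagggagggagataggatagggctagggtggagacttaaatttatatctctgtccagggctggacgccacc
Stab2, chr10:87007943-87008192, minus strand: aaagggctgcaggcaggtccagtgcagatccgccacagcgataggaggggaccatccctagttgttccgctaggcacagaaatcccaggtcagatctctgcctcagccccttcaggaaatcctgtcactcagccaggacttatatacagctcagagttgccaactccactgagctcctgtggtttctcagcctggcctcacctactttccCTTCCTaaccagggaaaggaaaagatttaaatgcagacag
Ehd3, chr17:73804591-73804840, plus strand: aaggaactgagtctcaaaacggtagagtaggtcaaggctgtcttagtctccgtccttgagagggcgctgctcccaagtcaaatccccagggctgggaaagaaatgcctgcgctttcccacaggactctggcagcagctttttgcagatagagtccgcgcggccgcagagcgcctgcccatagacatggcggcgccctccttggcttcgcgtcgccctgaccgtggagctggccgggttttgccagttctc
Tie1, chr4:118489850-118490099, minus strand: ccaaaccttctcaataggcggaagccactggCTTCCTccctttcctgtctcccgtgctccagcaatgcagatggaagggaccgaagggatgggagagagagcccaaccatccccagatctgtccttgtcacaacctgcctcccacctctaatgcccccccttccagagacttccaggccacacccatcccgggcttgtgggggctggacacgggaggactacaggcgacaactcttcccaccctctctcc

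*Clec4g* held 3 matches, 2 of which overlap, *Stab2* and *Tie1* held 1 each and *Ehd3* none. Promoters were found for 19 of the 36 genes (6 of the 11 sinusoidal genes), and 13 of the 19 held this form of the ETS site in at least 1 promoter. By windows, 14 of 23 (60.9%) held it, beside 29.5% of 32851 windows of all genes. AGATAA or TTATCT, a form of the site bound by GATA factors, was present in 1 of the 23 windows, that of *Erg*, beside 9.99% of all windows. Other forms of the ETS and GATA sites were not counted. A match is a run of letters and not a measured binding site.

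In TIM4+CD206hi KCs, sinusoidal genes stood among the most abundant transcripts of the libraries. The 11 genes had a median rank of 99.4 percentile over the tumour-free samples, and 10 of them ranked above the 90th percentile in every tumour-free and every tumour-bearing sample. *Clec4g*, which encodes the lectin LSECtin, was at 16.09, 15.74 and 16.12 in tumour-free samples and ranked at 99.8 percentile in each. Per kilobase of transcript it was the highest of the 36 genes (mean rank 99.8), followed by the water channel gene *Aqp1* (99.6), *Ehd3* (99.5), the secreted protein gene *Oit3* (99.1), the vessel matrix gene *Egfl7* (99.1) and the atypical chemokine receptor gene *Gpr182* (98.8). These ranks lay within 1 percentile of each other, and their order is a description. *Gata4*, a transcription factor of sinusoidal identity, was the exception among the 11 genes, at ranks of 78.9 to 86.5 in the 6 samples.

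**Figure D1:**
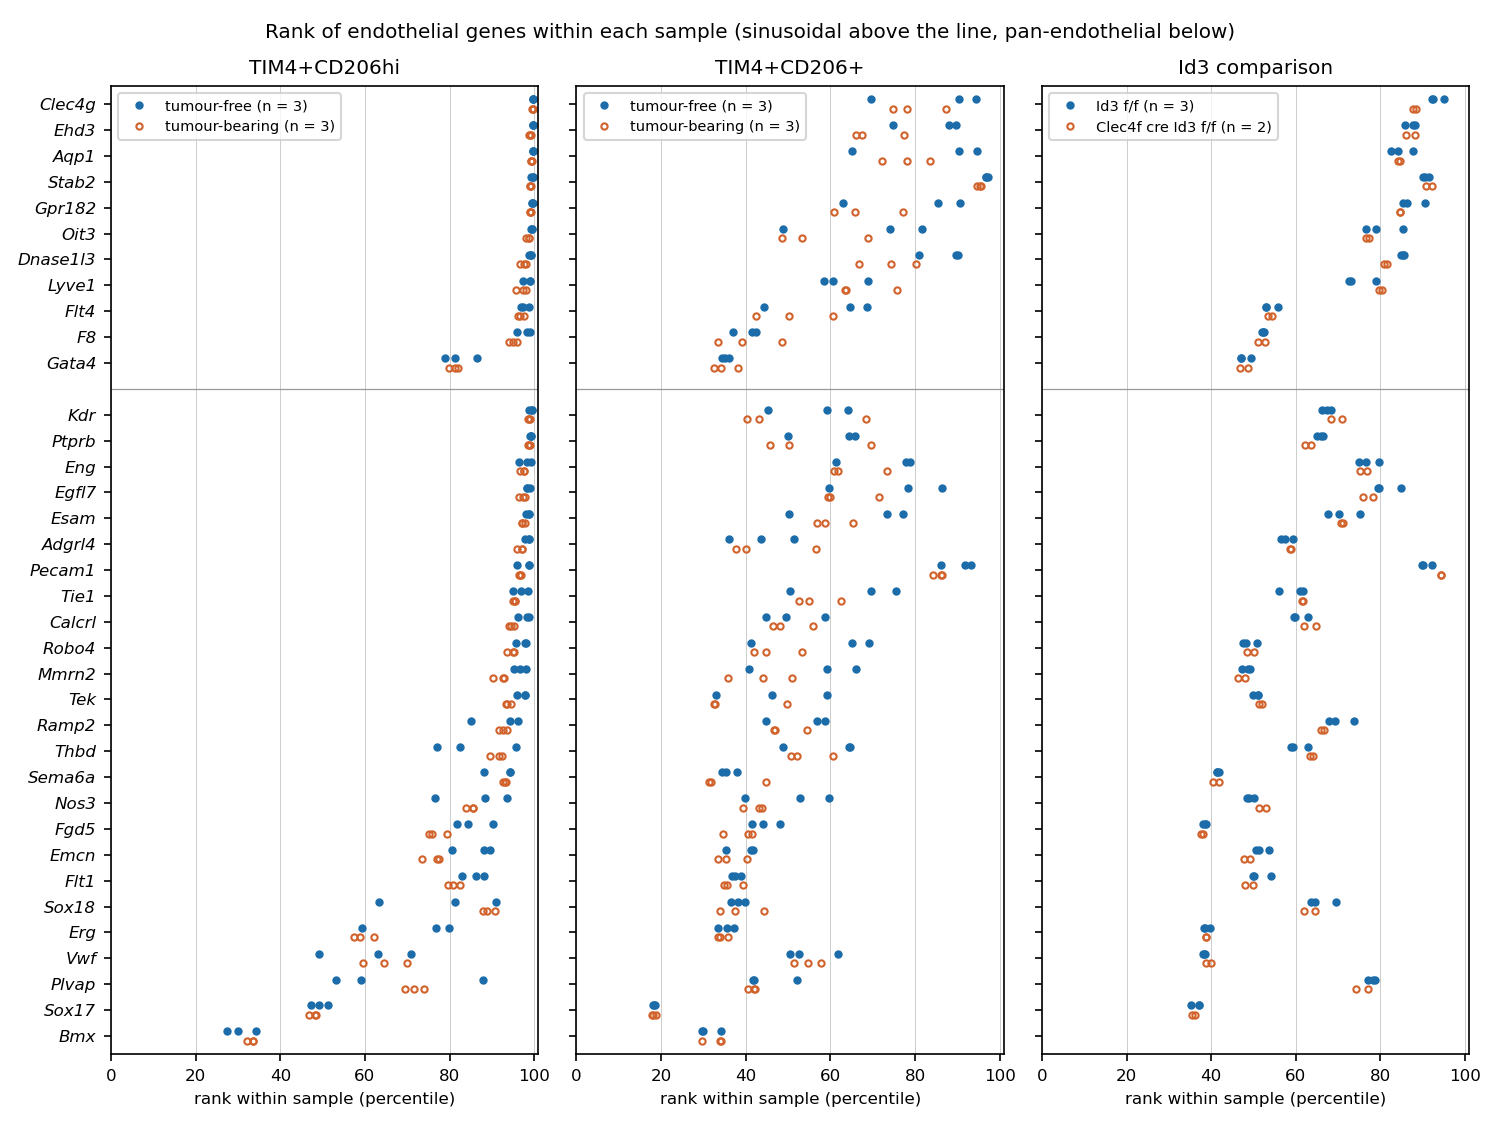
Percentile rank of each of the 36 genes among all genes with reads in the same sample (horizontal axis), with 1 point per sample, in TIM4+CD206hi KCs, TIM4+CD206+ KCs and the Id3 comparison. In TIM4+CD206hi KCs most points lie above 90, whereas in TIM4+CD206+ KCs only *Stab2* does so in every sample and the points of a gene spread widely.

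Pan-endothelial genes covered a broader range in TIM4+CD206hi KCs. Of the 25 genes, 12 ranked above the 90th percentile in every tumour-free sample and 14 in every tumour-bearing sample. *Kdr*, the main receptor for vascular endothelial growth factor, ranked at 98.8 to 99.5 in tumour-free samples, and *Ptprb*, a phosphatase of endothelial junctions, at 98.5 to 99.3 over the 6 samples. At the low end, the artery-enriched kinase gene *Bmx* ranked at 27.4 to 34.2, *Sox17*, a transcription factor of arterial endothelium, at 46.8 to 51.3, and *Vwf*, the von Willebrand factor of larger vessels, at 49.1 to 70.9. *Bmx* and *Sox17* thus stood near or below the middle of the libraries in which *Kdr* was near the top. *Plvap*, which encodes the diaphragm protein of fenestrae and caveolae, ranked at 59.1, 88.0 and 53.3 in the tumour-free samples, so that its level in this group rests on which library is read.

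In TIM4+CD206+ KCs the same genes ranked lower. *Stab2*, which encodes the hyaluronan scavenger receptor stabilin-2, was at 13.32, 13.01 and 13.41 in tumour-free samples, and its ranks were 96.7 to 97.1. No other gene among the 36 ranked above the 90th percentile in every tumour-free sample. *Clec4g* was at 12.47, 9.19 and 11.66, *Aqp1* at 12.54, 8.75 and 11.67, and *Gpr182* at 11.70, 8.52 and 10.91, with replicate 2 lowest for all 3. The median range within the tumour-free group was 1.82 log2 units for sinusoidal genes and 1.49 for pan-endothelial genes, on the scale of this table. *Pecam1*, which encodes the adhesion molecule CD31 of endothelium, platelets and many leukocytes, ranked at 86.2 to 93.2 in tumour-free samples. *Sox17* did not pass the filter on low values in this table, and *Gata4*, *Erg* and *Flt1* ranked below the 40th percentile in all 6 samples.

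In KCs of the Id3 comparison, the median range within the Id3f/f group was 0.27 log2 units for both lists. *Clec4g* ranked at 92.1 or higher and *Stab2* at 91.4 or lower in Id3f/f samples, and sinusoidal genes had a median rank of 82.6 to 85.4 per sample, against 56.2 to 60.4 for pan-endothelial genes. In each of the 3 tables and each sample the sinusoidal list had the higher median rank.

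The summed level of the 36 genes, computed as the sum of 2 to the power of each value over that of all genes, was 1.33% to 2.01% in tumour-free and 0.802% to 0.992% in tumour-bearing TIM4+CD206hi samples. In TIM4+CD206+ KCs it was 0.0492% to 0.118% and 0.0407% to 0.0647%, and in the Id3 comparison 0.0944% to 0.122% over all 5 samples. In bulk libraries, fewer endothelial cells in the sort and less endothelial RNA per cell cannot be told apart, nor can endothelial from KC transcripts of the same gene.

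To compare the subsets, the rank of each gene in the 3 TIM4+CD206hi samples was set against that in the 3 TIM4+CD206+ samples of the same condition. Among tumour-free samples, 34 of the 36 genes ranked higher in every TIM4+CD206hi sample than in every TIM4+CD206+ sample, beside 43.7% of all 17434 genes with reads in both tables. Among tumour-bearing samples 35 of 36 did, beside 51.7% of all genes. No test was made, because the tables were transformed separately and hold different numbers of genes with reads (17754 and 19360), and the high shares over all genes show how far the tables differ in general. The median rank gain of the 36 genes was 35.6 percentile points in tumour-free and 38.2 in tumour-bearing samples, against 2.0 and 2.8 over all genes.

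The gain differed between genes. Among tumour-free samples it was greatest for *F8*, the gene of coagulation factor VIII, with a mean rank of 40.3 in TIM4+CD206+ and 97.7 in TIM4+CD206hi KCs. It was followed by *Sema6a*, a transmembrane semaphorin (35.8 and 92.2), *Adgrl4*, an adhesion receptor of angiogenic endothelium (43.8 and 98.4), and *Tek*, the angiopoietin receptor TIE2 (46.2 and 97.2). *Stab2* moved only from 96.9 to 99.5, since it was already near the top. The 2 genes that did not separate were *Bmx* (31.2 and 30.5) and *Vwf* (54.9 and 61.0), and in tumour-bearing samples only *Bmx* did not (32.5 and 33.1). The 11 sinusoidal genes had median ranks of 79.7 and 99.4 in the tumour-free subsets, and the 25 pan-endothelial genes 51.0 and 92.2.

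With tumour, the sinusoidal genes of TIM4+CD206hi KCs were lower. Of the 11 genes tested, 6 fell (limma, adjusted p under 0.05) and none rose, where 2.03% of the 14561 genes tested fell and 5.21% rose. The 3 tumour-bearing values lay below all 3 tumour-free values for 8 of the 11, beside 15.2% of all genes, and all 11 differences were below 0. Their median difference was −0.94, against 0.03 over all genes tested.

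*Ehd3* was at 15.99, 15.92 and 15.89 in tumour-free samples and at 14.08, 14.29 and 14.50 in tumour-bearing samples. It fell by 1.64 on the log2 scale (standard error 0.17, 95% interval −2.03 to −1.25, limma adjusted p = 0.00119), and no sample overlapped. *Aqp1* was at 15.93, 15.49 and 15.75 and then at 14.62, 14.76 and 14.69, and fell by 1.03 (standard error 0.17, adjusted p = 0.0122).

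Among secreted proteins, *Dnase1l3*, a deoxyribonuclease that digests DNA of dead cells and is also made by macrophages, was at 14.68, 14.12 and 14.83 and then at 12.98, 13.26 and 13.44. It fell by 1.32 (standard error 0.23, limma adjusted p = 0.016). *Oit3* went from 15.13, 14.48 and 15.38 to 13.49, 13.89 and 13.85, and fell by 1.25 (standard error 0.26, adjusted p = 0.0311). For both genes each tumour-bearing value was below each tumour-free value.

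Among surface receptors, *Gpr182* was at 15.44, 14.96 and 15.25 and then at 14.15, 14.37 and 14.29, and fell by 0.94 (standard error 0.18, limma adjusted p = 0.0211). *Clec4g* was at 14.95, 15.17 and 15.14 in tumour-bearing samples and fell by 0.90 (standard error 0.18, adjusted p = 0.024). Both genes remained above the 98th percentile in each tumour-bearing sample. *Stab2* was at 15.66, 14.57 and 15.50 and then at 14.24, 14.33 and 14.56, without overlap, but its difference of −0.87 did not pass (adjusted p = 0.152). The tumour-free value nearest to the tumour-bearing samples was that of replicate 2. *Lyve1*, a hyaluronan receptor of sinusoidal and lymphatic endothelium and of some macrophages, differed by −0.94 (adjusted p = 0.221). *Flt4*, the receptor VEGFR3, differed by −0.50 (adjusted p = 0.386). *F8* differed by −1.11 without overlap (adjusted p = 0.153), and *Gata4* by −0.06, with a 95% interval of −0.60 to 0.47.

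**Figure D2:**
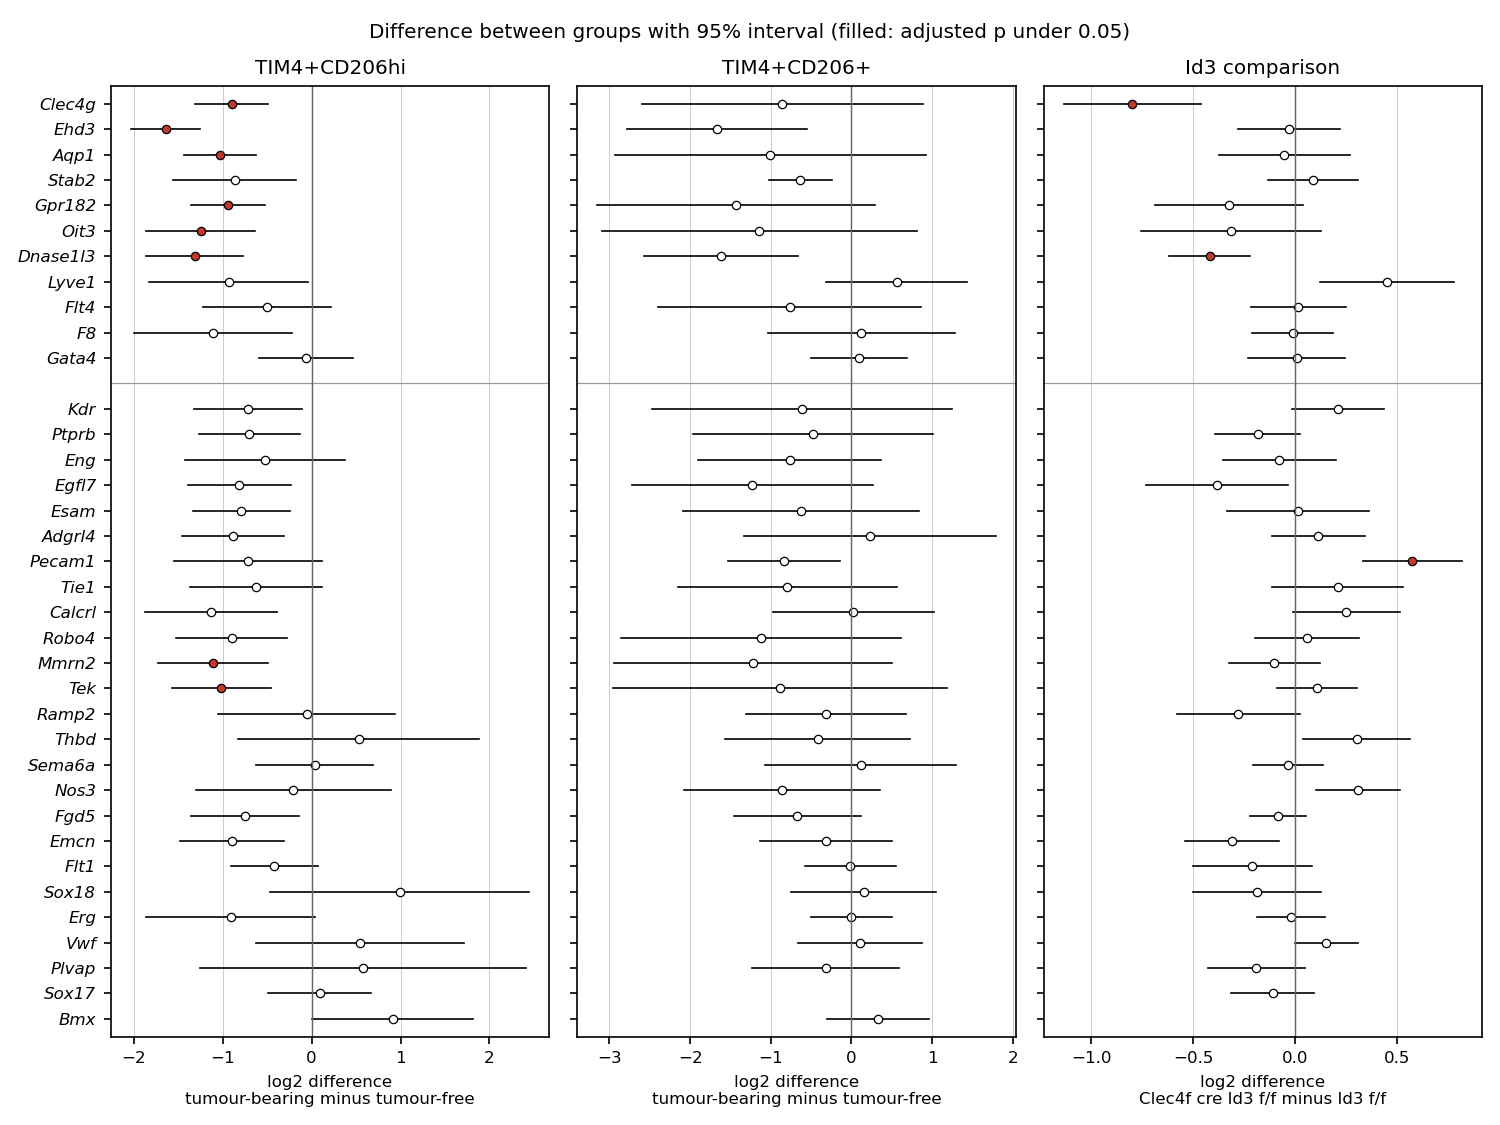
Log2 difference between groups (horizontal axis, with its 95% interval from limma) for each of the 36 genes in the 3 comparisons, each panel on its own scale. In TIM4+CD206hi KCs 8 filled points lie below 0, in TIM4+CD206+ KCs no point is filled and the intervals are wide, and in the Id3 comparison 3 points are filled.

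Of the 25 pan-endothelial genes in TIM4+CD206hi KCs, 2 fell and none rose, where 2.03% of all genes tested fell and 5.21% rose. The median difference of the 25 genes was −0.70, and 18 differences were below 0. In the lower direction 11 of the 25 had no overlap, beside 15.2% of all genes. *Tek* was at 13.48, 12.77 and 13.59 and then at 12.19, 12.20 and 12.38, and fell by 1.02 (standard error 0.24, limma adjusted p = 0.0469). *Mmrn2*, which encodes multimerin-2 of the vessel matrix, was at 13.57, 12.59 and 13.06 and then at 11.75, 12.06 and 12.07, and fell by 1.11 (standard error 0.26, adjusted p = 0.0499). Both were lost when no filter on low values was applied.

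Among the other receptors, *Calcrl*, the calcitonin-receptor-like receptor that binds adrenomedullin with RAMP2, differed by −1.13 (limma adjusted p = 0.085). Its partner *Ramp2* differed by −0.06 (95% interval −1.05 to 0.93), with tumour-free values of 12.86, 12.40 and 11.10. The growth factor receptor *Kdr* differed by −0.71 (adjusted p = 0.174), and *Flt1*, the receptor VEGFR1, by −0.42 (adjusted p = 0.302). *Tie1*, the partner of TIE2, differed by −0.63, *Ptprb* by −0.70 and *Adgrl4* by −0.89, all without overlap and with adjusted p of 0.306, 0.155 and 0.0812. *Robo4*, a receptor that stabilizes vessels, differed by −0.90 without overlap (adjusted p = 0.102), *Eng*, the TGF-beta co-receptor endoglin, by −0.53 (adjusted p = 0.452) and *Sema6a* by 0.04 (adjusted p = 0.949).

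Of the junction, surface and matrix genes, *Esam*, a tight junction molecule, differed by −0.79, the sialomucin gene *Emcn* by −0.89 and *Egfl7* by −0.81, all without overlap and with adjusted p of 0.0998, 0.0863 and 0.11. *Pecam1* differed by −0.72 (adjusted p = 0.298). *Plvap* was at 8.89, 11.49 and 8.11 in tumour-free and at 9.90, 10.06 and 10.27 in tumour-bearing samples. Its difference of 0.58 had a 95% interval of −1.26 to 2.42, because tumour-free replicate 2 was above and the other two below the tumour-bearing samples.

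Transcription factors and signalling genes went both ways. *Erg*, the ETS factor of endothelium, differed by −0.91 (adjusted p = 0.255) and *Fgd5*, an exchange factor for CDC42, by −0.75 (adjusted p = 0.154). *Sox18* was at 10.80, 11.88 and 9.12 and then at 11.45, 11.54 and 11.78, a difference of 0.99 (adjusted p = 0.394), and *Sox17* differed by 0.09 (adjusted p = 0.853). *Nos3*, the endothelial nitric oxide synthase, differed by −0.21 (adjusted p = 0.814) and *Bmx* by 0.91 (adjusted p = 0.234). Of the coagulation genes, *Vwf* differed by 0.55 (adjusted p = 0.543) and the thrombomodulin gene *Thbd* by 0.53 (adjusted p = 0.611), with tumour-free values of 12.77, 10.95 and 10.30 that enclosed the tumour-bearing values of 11.94, 12.02 and 11.65. None of these 8 genes passed the test.

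The number of calls in TIM4+CD206hi KCs rested on single libraries. Without tumour-free replicate 2, 24 of the 36 genes were called, of which 21 fell, where 7.38% of all genes fell, and 3 rose, where 17.6% of all genes rose. All 8 genes called above were among the 24. The 3 that rose were *Sox18* (1.63), *Plvap* (1.57) and *Bmx* (1.35, limma adjusted p = 0.0426, 0.00791 and 0.00826). Without tumour-free replicate 1, 2 genes were called, without tumour-bearing replicates 1, 2 or 3 the numbers were 1, 1 and 2, and *Ehd3* was called in each of these fits. Between 3.98% and 4.46% of all genes were called in these 4 fits, so that the share of the 36 genes was then near that of all genes. Without tumour-free replicate 3, 7 genes were called, beside 8.76% of all genes.

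The 2 tumour-free libraries that stood apart were low for different genes. The 21 genes for which replicate 2 was lowest, such as *Stab2*, *F8*, *Erg* and *Pecam1*, had a median GC content of 50.8% in their longest transcript (GENCODE M21). The 12 genes for which replicate 3 was lowest, such as *Sox18*, *Plvap*, *Nos3*, *Ramp2* and *Eng*, had a median of 57.0%. Across the 36 genes, the deviation of replicate 3 from the group mean had a Spearman correlation of −0.67 with GC content, and across 14334 tested genes of −0.39. The points share 1 library, and the value is a description. The corresponding values over the 36 genes were 0.37 for replicate 1, 0.45 for replicate 2 and −0.29 to 0.23 for the tumour-bearing samples. The deviations of a gene cancel out over the samples of a group, so the values of its replicates are not separate observations. The part of GC content in the tumour differences was not tested.

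**Figure D3:**
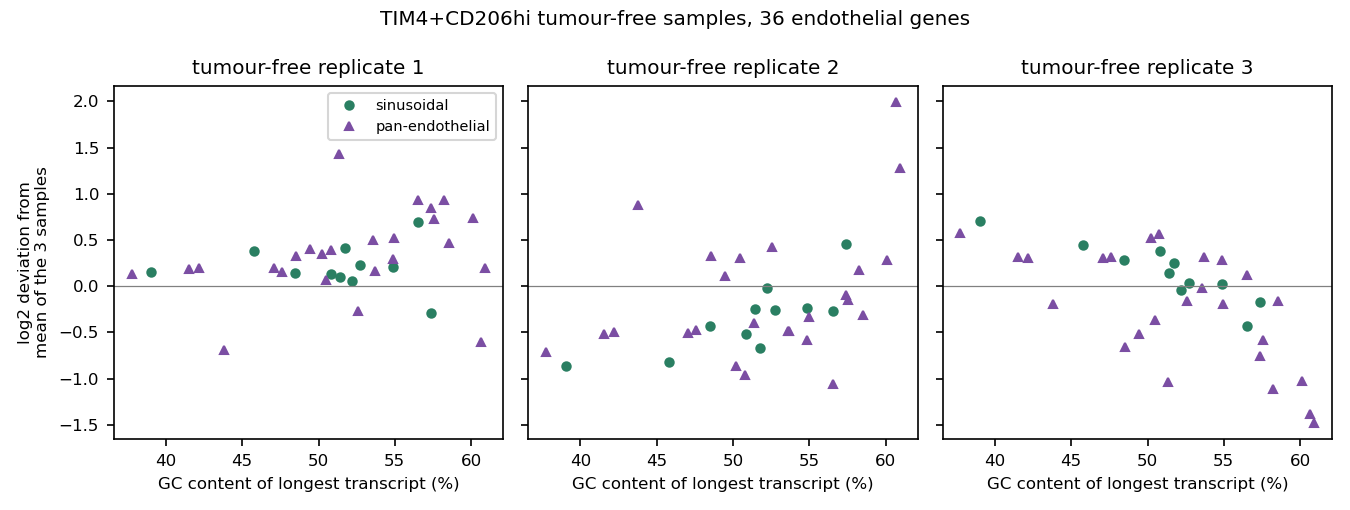
Deviation of each of the 36 genes from the mean of the 3 tumour-free TIM4+CD206hi samples (vertical axis, log2) against the GC content of its longest transcript (horizontal axis, %), with 1 panel per sample. In replicate 3 the points fall with rising GC content, and in replicates 1 and 2 they tend to rise. The deviations of a gene cancel out over the 3 samples, so the panels are not separate observations.

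In TIM4+CD206+ KCs, none of the 35 endothelial genes tested passed the test in either direction, where 0.998% of 13233 genes fell and 2.55% rose. At an unadjusted p under 0.05 there were 4 (*Stab2*, *Dnase1l3*, *Ehd3* and *Pecam1*), all lower with tumour, a share below the 17.2% of all genes tested that had such a p, and limma was the only tool run. The median difference was −0.86 for the 11 sinusoidal genes and −0.42 for the 25 pan-endothelial genes, against 0.02 over all genes tested. The medians of the sinusoidal list were 11.54, 8.52 and 10.91 in tumour-free and 8.72, 8.57 and 9.82 in tumour-bearing samples, so that tumour-free replicate 2 lay at the level of the tumour-bearing samples.

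Groups did not overlap for 3 of the 35 genes, all lower with tumour, beside 10.5% of all genes. *Stab2* was at 12.43, 12.72 and 12.68 with tumour, below each tumour-free value, with a difference of −0.63 (95% interval −1.02 to −0.24, limma adjusted p = 0.0913). *Dnase1l3* was at 11.61, 10.33 and 11.55 and then at 9.55, 8.90 and 10.18, a difference of −1.62 (95% interval −2.57 to −0.66, adjusted p = 0.0812). *Pecam1* was at 12.22, 10.95 and 11.93 and then at 10.90, 10.75 and 10.95, a difference of −0.84 (adjusted p = 0.206) in which the nearest samples of the 2 groups were almost level. *Ehd3* was at 11.54, 9.72 and 11.29 and then at 8.75, 8.96 and 9.85, a difference of −1.66 (adjusted p = 0.121) with 1 tumour-bearing sample above tumour-free replicate 2.

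Deviations of same-numbered tumour-free and tumour-bearing samples of this subset correlated by 0.35, 0.56 and 0.15 for replicates 1, 2 and 3. The replicate number was therefore also fitted as a block. The labels give only a number, and the block was chosen from these same data, so its calls are no separate evidence. With the block, 5 of the 35 genes fell, where 3.09% of all genes fell. These were *Dnase1l3* (limma adjusted p = 0.000424), *Ehd3* (0.00773), *Pecam1* (0.0371), *Stab2* (0.048) and *Mmrn2* (0.0499). Without tumour-free replicate 2 and without the block, 12 genes fell, where 4.5% of all genes fell. The 12 were *Aqp1*, *Clec4g*, *Dnase1l3*, *Egfl7*, *Ehd3*, *Esam*, *Gpr182*, *Nos3*, *Pecam1*, *Robo4*, *Stab2* and *Tie1*, with differences from −2.36 (*Gpr182*) to −0.75 (*Stab2*). With any other sample left out, none of the endothelial genes was called, beside 1.75% to 1.97% of all genes in either direction.

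The remaining sinusoidal genes of TIM4+CD206+ KCs had wide intervals. *Gpr182* differed by −1.43 (95% interval −3.15 to 0.30), *Oit3* by −1.14 (−3.10 to 0.81), *Clec4g* by −0.86 (−2.60 to 0.89) and *Flt4* by −0.76 (−2.39 to 0.87), and the interval of *Aqp1* ran from −2.93 to 0.92. *Lyve1* differed by 0.56 (−0.31 to 1.44), *F8* by 0.12 and *Gata4* by 0.10. Differences of the size seen in TIM4+CD206hi KCs lie within most of these intervals, and the subsets' changes were not tested against each other. Among the pan-endothelial genes, the differences ran from −1.23 for *Egfl7* to 0.33 for *Bmx*, with *Kdr* at −0.61, *Tek* at −0.88, *Eng* at −0.76 and *Erg* at 0.00.

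**Figure D4:**
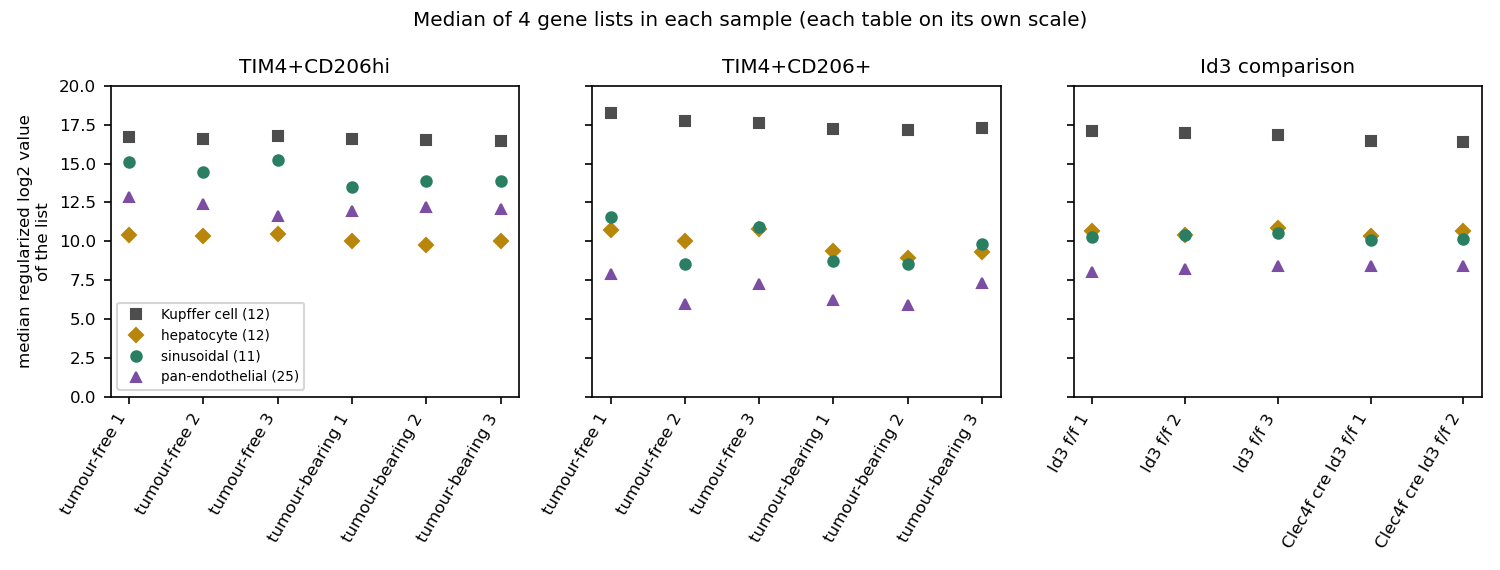
Median regularized log2 value (vertical axis) of the 12 KC markers, 12 hepatocyte markers, 11 sinusoidal genes and 25 pan-endothelial genes in each sample (horizontal axis), each table on its own scale. The sinusoidal median lies between 13.49 and 15.25 in TIM4+CD206hi samples, and in TIM4+CD206+ KCs it is 8.52 in tumour-free replicate 2 against 11.54 and 10.91 in the other two.

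In KCs of Clec4fCreId3f/f mice, the endothelial genes as a group were level with those of Id3f/f mice. The median difference was −0.03 for both lists, against 0.00 over all genes tested. Of 35 genes tested, 2 fell and 1 rose (limma, adjusted p under 0.05), where 3.37% of 12833 genes fell and 3.08% rose. Groups did not overlap for 8 genes in the lower and 8 in the higher direction, beside 21.7% and 20.2% of all genes, shares near those of all genes.

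*Clec4g* was at 11.43, 11.47 and 11.96 in Id3f/f and at 10.76 and 10.88 in Clec4fCreId3f/f samples, and fell by 0.80 (standard error 0.15, limma adjusted p = 0.0179). *Dnase1l3* was at 10.58, 10.54 and 10.47 and then at 10.08 and 10.14, and fell by 0.42 (standard error 0.09, adjusted p = 0.0268). *Pecam1* was at 11.12, 11.12 and 11.42 and then at 11.82 and 11.77, and rose by 0.58 (standard error 0.11, adjusted p = 0.018). Of the other sinusoidal genes, *Stab2* differed by 0.09 (95% interval −0.13 to 0.31), *Ehd3* by −0.03 (−0.28 to 0.22) and *Aqp1* by −0.05 (−0.37 to 0.27).

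Of the genes that missed the threshold, *Lyve1* was at 9.41, 9.39 and 9.89 and then at 10.03 and 9.99, a difference of 0.45 without overlap (limma adjusted p = 0.0984). *Nos3* differed by 0.31 (adjusted p = 0.0801), *Thbd* by 0.30 (0.152) and *Emcn* by −0.31 (0.105), all without overlap. Leaving out Id3f/f replicate 3, which was the highest of its group for 21 of 35 genes, gave 6 calls, beside 14.4% of all genes, and leaving out Id3f/f replicate 1 or 2 left *Clec4g* alone, beside 1.61% and 3.19% of all genes. A fit without either Clec4fCreId3f/f sample assumes that the remaining sample varied like the Id3f/f samples, so only its differences are given. The median difference of sinusoidal genes was −0.07 without Clec4fCreId3f/f replicate 1 and −0.10 without replicate 2. That of pan-endothelial genes was −0.00412 and −0.00832.

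A second list of 24 endothelial genes, such as *Cdh5*, *Nrp1* and *Tspan7*, was examined beside the 36. In TIM4+CD206hi KCs, 5 of the 24 fell and none rose, where 2.03% of all genes tested fell and 5.21% rose. The median difference of the 24 genes was −0.31. *Tspan7*, a tetraspanin, fell by 0.98 (limma adjusted p = 0.0202), the semaphorin receptor gene *Nrp1* differed by −0.75 (0.0689) and *Adgrf5*, an adhesion receptor, by −1.02 (0.117). In TIM4+CD206+ KCs none of 22 was called by limma, with 2 at an unadjusted p under 0.05, beside 17.2% of all genes tested. The median difference of the 24 genes was −0.15 there, with 17 differences below 0 and 7 above. *Cdh5*, which encodes VE-cadherin, differed by −0.57 (limma adjusted p = 0.0906), *Icam2* by −0.16 (0.864) and *Nrp1* by 0.28 (0.685). In the Id3 comparison none of 22 was called by limma, with 2 at an unadjusted p under 0.05, beside 23.6% of all genes tested.

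Markers of other cells moved with the tumour in the same libraries. In TIM4+CD206hi KCs, 7 of 12 hepatocyte markers fell and 1 rose, 3 of 9 stellate cell markers fell and 2 of 7 lymphocyte markers fell. All 8 of 8 tumour epithelial markers rose, among them *Krt8*, *Krt18* and *Krt19*. Of all genes tested in this subset, 2.03% fell and 5.21% rose. The 12 hepatocyte markers had a median difference of −1.49. The summed hepatocyte level was 0.293% to 0.366% in tumour-free and 0.263% to 0.304% in tumour-bearing samples. *Trf*, which has the highest mean of the 12 (16.38 in tumour-free samples), weighs most in this sum. It differed by −0.13 (limma adjusted p = 0.717). In the same order, the epithelial level was 0.00479% to 0.00674% and 0.141% to 0.15%, and the KC level 4.05% to 5.23% and 3.64% to 4.02%. In TIM4+CD206+ KCs, 6 of 12 hepatocyte, 3 of 7 lymphocyte and 3 of 12 KC markers fell and 8 of 8 epithelial markers rose. Of all genes tested in that subset, 0.998% fell and 2.55% rose. The hepatocyte markers had a median difference of −1.26 there. The summed KC level was 8.05% to 10.2% in tumour-free and 6.25% to 6.83% in tumour-bearing samples. No marker of these lists was listed at 0 in the KC subsets. In the Id3 comparison, 5 of 12 KC markers fell and 3 rose, 1 of 5 platelet markers fell, and no hepatocyte, stellate cell or lymphocyte marker was called. Of all genes tested in the Id3 comparison, 3.37% fell and 3.08% rose. The defining markers of lymphatic endothelium were low, with *Prox1* at a group mean of 6.58 or less (it fell by 0.95 in TIM4+CD206hi KCs, limma adjusted p = 0.0378) and a summed level of the 4 markers of at most 0.000416%. *Pdpn*, which encodes podoplanin and belongs to the same list, rose by 1.37 in that comparison (limma adjusted p = 0.0211). In tumour-free replicate 2 of the TIM4+CD206hi KCs the summed level of 6 platelet markers was 0.0266%, the highest of that table. The part of these markers in the differences of the endothelial genes was not tested.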

How the data were processed

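RNA of sorted KCs was amplified with SMART-Seq v4 and sequenced, without molecular identifiers. Per the labels, reads were aligned to mm10 with STAR 2.7.10a and counted with HTSeq, and DESeq2 is named as a tool. The deposited values, 1 table per comparison, have the form of regularized log2 values. That transformation is inferred from the values and the tools named. Their headers name TPM, but on the linear scale their sums differ between samples and are not those of TPM. Genes without reads are 0 in every sample of a table. The transformation shrinks differences of low genes. Raw counts were not used here, so depth is unknown and no count test was run.

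Within each table, groups were compared with limma 3.58.1 (R 4.3.3, mean-variance trend, no block), over genes with a value of at least log2(10) in 3 samples (2 in the Id3 table), with Benjamini-Hochberg adjustment over all genes tested and a threshold of 0.05; the script was tested on simulated data. Ranks are percentiles among genes with reads in a sample, and per-length ranks used the longest GENCODE M21 transcript. Deviations of same-numbered samples correlated across genes by 0.35, 0.56 and 0.15 in TIM4+CD206+ KCs (taken as paired from the data, since the labels give only a number), by −0.05, −0.13 and −0.05 in TIM4+CD206hi KCs and by −0.07 and −0.10 in the Id3 comparison. All 36 genes are named, and of each other list the 3 genes with the highest mean value were eligible. *Xist*, *Ddx3y*, *Timd4* and *Vsig4* were named outside that rule. The genes and lists were chosen with earlier results of these data known. Alternatives were no filter, a mean of at least log2(50), median centring, quantile normalization, no trend, the replicate block, leaving out each sample and, for ranks, only genes past the filter in both tables or values per transcript length.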

Additional observations from a re-analysis of the deposited data

How the results depend on the processing

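The number of genes ranking higher in TIM4+CD206hi than in TIM4+CD206+ KCs stood at 34 or 35 (tumour-free) and 35 (tumour-bearing) of 36 with single samples left out, and at 32 and 33 with ranks over the genes past the filter in both tables, which 35 of the 36 pass. With single samples left out, 0 to 12 genes were called in TIM4+CD206+ KCs, 1 to 24 in TIM4+CD206hi KCs and 0 to 6 in the Id3 comparison. The median difference of sinusoidal genes then lay between −1.81 and −0.28, −1.20 and −0.83, and −0.11 and −0.00418 in the 3 comparisons, and that of pan-endothelial genes between −0.77 and −0.15, −0.72 and −0.49, and −0.0548 and 0.0409. With the replicate block, 5 genes were called in TIM4+CD206+ KCs, 3 in TIM4+CD206hi KCs and 7 in the Id3 comparison, beside 7.75%, 6.24% and 16.3% of all genes. The same-numbered samples of TIM4+CD206hi KCs and of the Id3 comparison share only a number. Centring on the 12 KC markers, chosen after the data were seen, moved the median of all genes to 0.45, 0.28 and 0.12. It gave 0, 3 and 9 calls (7 of the 9 higher in Clec4fCreId3f/f), beside 10.9%, 5.79% and 22.4% of all genes, and turned the pan-endothelial median of TIM4+CD206+ KCs to 0.0113 and the Id3 medians to 0.0882 (sinusoidal) and 0.0915 (pan-endothelial), below the shift of all genes in each case. In TIM4+CD206hi KCs, no filter, the stricter filter and no trend each left 6 calls, all sinusoidal, beside 4.86%, 4.83% and 7.35% of all genes. The cause of these changes was not tested.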
